A study of Mus musculus with 9 samples.

Results

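Postsynaptic scaffold and synaptic adhesion genes were followed across the brains of 3 inbred mouse strains. The set holds 38 genes chosen by name and function, with earlier results of these data known. It takes in the Dlg and Magi2 membrane-associated guanylate kinases with Lin7a, the Dlgap and Shank scaffolds, and the CaMKII subunits with their inhibitor Camk2n1. It also has the neuroligins, neurexins and LRRTM proteins, AMPA receptor partners, calcineurin subunits, and a few actin, Ras and inhibitory-synapse scaffolds. The array measured 36 of the 38 with 104 probe sets, out of 18193 genes and 45037 probe sets in all, and no probe set was named for Magi2 or Shank2 in the annotation used here. A probe set is a group of short probes that reads 1 stretch of a transcript. Of the 36 genes, 8 had 1 probe set and 28 had several, up to 8 for Kalrn, and these are given apart where they disagree.

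The tissue was brain hemisphere without cerebellum, from experimentally naive adult male mice of 11 ± 1 weeks. The strains were C57BL/6ByJ, BALB/cJ and B6By.C.132.54, a congenic line by the form of its name, with BALB/c as the donor and C57BL/6By as the recipient, although which donor segments it carries is not given in the labels. Each strain gave 3 arrays of 10 pooled hemispheres, from 30 mice per strain and 90 mice in all, so the spread reported below is between pools, not animals. All values are log2 signal intensities, and fewer cells of a type and less RNA per cell cannot be told apart in such pools.

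At an excitatory synapse the postsynaptic density is a layered protein mesh. PSD-95 and its relatives hold glutamate receptors and adhesion proteins at the membrane, SAPAP proteins link them to the Shank layer beneath, and Shanks join the mesh to the actin cytoskeleton. CaMKII is the calcium-activated kinase of this mesh and a central enzyme of long-term potentiation, opposed by the phosphatase calcineurin. Neuroligins and LRRTMs on the postsynaptic side bind neurexins on the presynaptic side and align both sides of the contact.

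The 250 bases before the outermost annotated start are shown for 3 members. A link between these bases and the signals was not tested. The 3 were picked from the test of the replicate number (values further on), which 1 probe set of each passed. Those of Lrrtm3 and Dlgap1 were higher in replicate 1 and that of Dlg4 was lower. The other probe sets of these genes did not pass that test. Letters run 5′ to 3′ on the gene's strand, from RefSeq on GRCm38.p6, with CG dinucleotides in capitals.
Lrrtm3, chr10:64090256-64090505, minus strand: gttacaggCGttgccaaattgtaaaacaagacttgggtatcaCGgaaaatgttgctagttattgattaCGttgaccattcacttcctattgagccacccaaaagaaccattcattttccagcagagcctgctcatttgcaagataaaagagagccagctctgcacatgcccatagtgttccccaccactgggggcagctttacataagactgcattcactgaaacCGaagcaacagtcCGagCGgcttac
Dlgap1, chr17:69968823-69969072, plus strand: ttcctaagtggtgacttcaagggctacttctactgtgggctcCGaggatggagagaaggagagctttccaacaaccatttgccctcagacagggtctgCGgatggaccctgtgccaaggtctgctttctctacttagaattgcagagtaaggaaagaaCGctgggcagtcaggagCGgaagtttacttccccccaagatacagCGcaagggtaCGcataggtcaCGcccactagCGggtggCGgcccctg
Dlg4, chr11:70016953-70017202, plus strand: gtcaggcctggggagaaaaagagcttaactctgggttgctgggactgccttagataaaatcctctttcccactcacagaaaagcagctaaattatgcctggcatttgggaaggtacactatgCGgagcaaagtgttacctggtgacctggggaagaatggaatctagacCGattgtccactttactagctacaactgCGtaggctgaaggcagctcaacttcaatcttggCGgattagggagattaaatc
These windows held 6 CG dinucleotides and 46% GC for Lrrtm3, 9 and 55.2% for Dlgap1, and 4 and 47.2% for Dlg4. None of the windows shown held the searched letters GGGCGG (a GC box), TATAAA or TGACGTCA (a cyclic AMP response element) on either strand. Dlg4 has 3 annotated windows, however, and GGGCGG stood in another of them than the one shown. Each motif was searched on its own, without regard to overlap with another. In the RefSeq table, 28 member genes were matched by symbol, with 45 windows of the 250 bases before an annotated start. GGGCGG stood in 42.2% of these against 32.7% of all 32851 windows, TATAAA in 8.89% against 12.4%, and TGACGTCA in 0 of 45 against 1.55%. The median window of the members had 9 CG dinucleotides and 56.8% GC, against 6 and 52.4% over all windows.

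The arrays were alike in brightness, with a median intensity between 15.49 and 15.99. Markers of neurons fixed as a list were above the median of all probe sets for 9 of 9 genes, with a mean log2 level of 9.95 to 10.1 in C57BL/6ByJ, 9.90 to 10.1 in BALB/cJ and 9.77 to 10.0 in B6By.C.132.54, and none of them passed the test between strains. Of 8 cerebellar markers, 3 were above that median. Between BALB/cJ and C57BL/6ByJ 1 of 8 astrocyte markers (Gfap), 0 of 7 oligodendrocyte markers, 2 of 8 microglial markers (C1qb and C1qc), 1 of 8 vascular markers (Cldn5) and 1 of 7 neocortical markers (Slc17a7, a vesicular glutamate transporter of excitatory terminals) passed it. Striatal markers had a mean level of 7.48 to 7.58 in C57BL/6ByJ, 7.59 to 7.78 in BALB/cJ and 7.33 to 7.54 in B6By.C.132.54. The 3 B6By.C.132.54 arrays correlated less with their own strain (mean r 0.988 to 0.991) than any array of the other strains did (0.993 to 0.995). Replicate 3 of B6By.C.132.54 was the lowest. Its log2 intensities also had the narrowest interquartile range, 2.73 against 2.84 to 2.98 on the other arrays.

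BALB/cJ brains differed from C57BL/6ByJ brains in the signal of 2 of the 104 member probe sets, 1 for Camk2n1 and 1 for Camk2a. Camk2n1, an endogenous inhibitor of CaMKII, was 7.03-fold lower on 1 of its probe sets, and Camk2a, the kinase subunit that predominates in forebrain excitatory neurons, was 2.02-fold higher on 1 of its 6. No other probe set of these genes passed. The members' share of 1.92% stands beside 1.43% of all 45037 probe sets called in this comparison (0.508% higher and 0.921% lower in BALB/cJ), so the list as a group was near the background. With the replicate number as a block the members' count was again 2. A call here is an adjusted p under 0.05 in limma's moderated test.

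The called Camk2n1 probe set, 1440455_at, read 8.18, 8.52 and 8.40 in C57BL/6ByJ replicates 1 to 3. It read 5.38, 5.41 and 5.87 in BALB/cJ, and 8.13, 8.36 and 8.39 in B6By.C.132.54. All BALB/cJ arrays were low, and the other strains overlapped. BALB/cJ was lower than C57BL/6ByJ by a log2 difference of -2.81 ± 0.144 (SE, n = 3 and 3, 95% interval -3.13 to -2.50, limma adjusted p = 1.5e-06). Set against the array of the same replicate number, the difference was -2.80, -3.11 and -2.53.

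The other Camk2n1 probe set, 1456609_at, went the opposite way. It read 12.02, 11.80 and 11.90 in C57BL/6ByJ, 12.33, 12.03 and 12.20 in BALB/cJ, and 11.83, 11.82 and 11.71 in B6By.C.132.54. The BALB/cJ arrays were the highest here and overlapped neither other strain. The log2 difference between BALB/cJ and C57BL/6ByJ was 0.28 ± 0.100 (SE, 95% interval 0.06 to 0.50), which did not pass (limma adjusted p = 0.434). The 2 intervals exclude each other, so these probe sets of 1 gene do not give 1 answer on Camk2n1 in BALB/cJ.

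The called Camk2a probe set, 1443876_at, read 6.79, 7.05 and 6.92 in C57BL/6ByJ. It read 7.81, 8.07 and 7.93 in BALB/cJ, and 6.53, 6.88 and 6.73 in B6By.C.132.54. Every BALB/cJ array was above every array of the other strains. The log2 difference from C57BL/6ByJ was 1.02 ± 0.116 (SE, n = 3 and 3, 95% interval 0.76 to 1.27, limma adjusted p = 0.000784), and within replicate numbers 1 to 3 it was 1.02, 1.02 and 1.01. Of the lists of other cell types and regions, that of 6 striatal markers was also higher on each BALB/cJ array than on any other, by the levels given above, and that of 8 microglial markers was lower, at 6.40 to 6.63 against 6.69 to 6.89 on the other arrays. The lists' part in the result was not tested.

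Of the other 5 Camk2a probe sets, 1437125_at had the same direction. It read 8.58, 8.69 and 8.95 in C57BL/6ByJ, 9.03, 9.19 and 9.27 in BALB/cJ, and 8.42, 8.97 and 8.75 in B6By.C.132.54. BALB/cJ again overlapped neither strain, but the log2 difference of 0.43 from C57BL/6ByJ missed the threshold (limma adjusted p = 0.369 without a block and 0.0808 with the replicate number as one). The remaining 4 differed by -0.07 to 0.19, among them the brightest, 1457311_at, at 10.00, 10.06 and 10.05 in C57BL/6ByJ and 9.98, 10.05 and 9.90 in BALB/cJ.

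**Figure D1:**
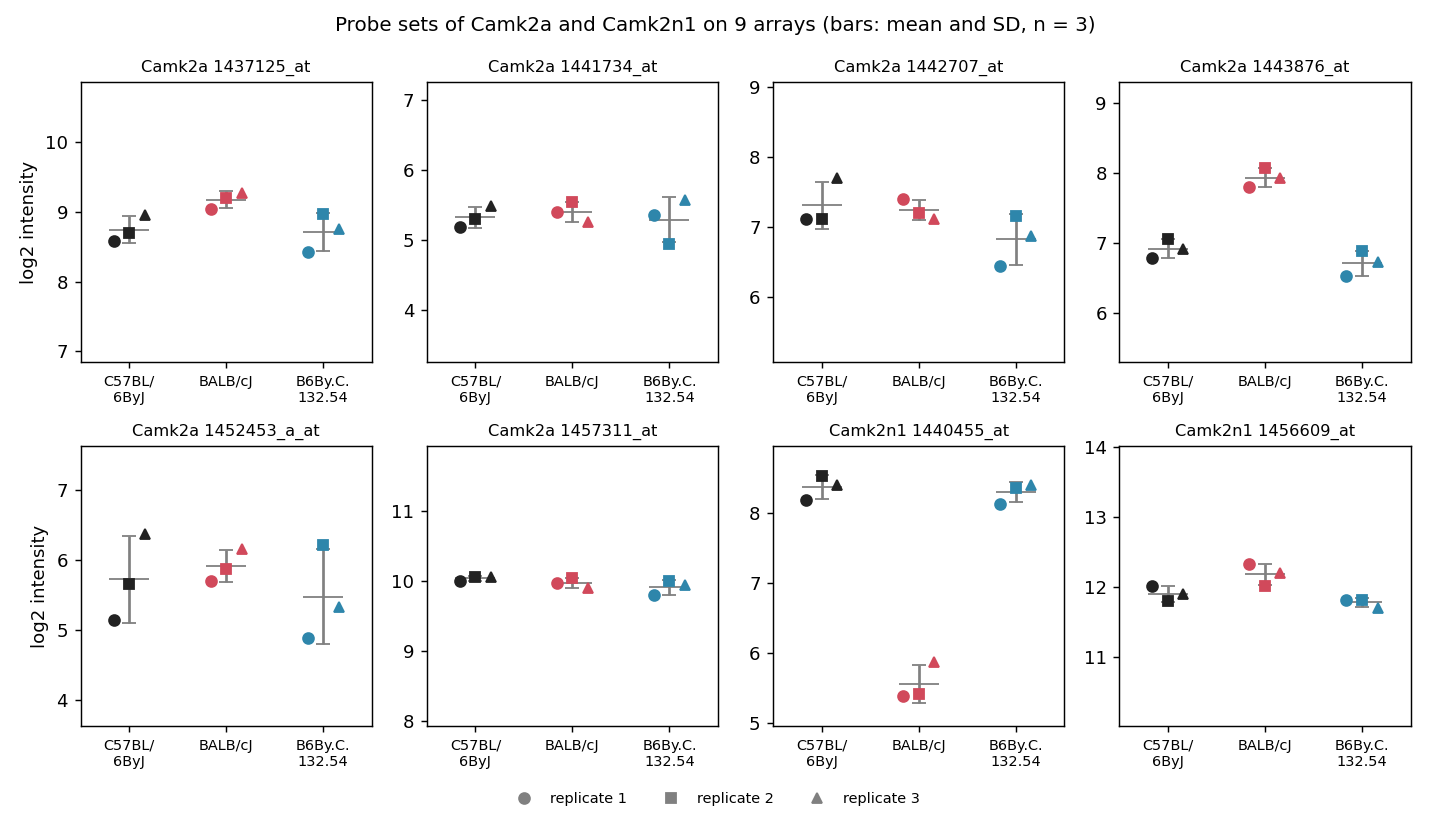
Log2 intensity of the 2 Camk2n1 and 6 Camk2a probe sets on the 9 arrays, by strain, with 1 point per array (its shape gives the replicate number) and bars for the strain mean and SD (n = 3). BALB/cJ stands apart on 1440455_at (low, mean 5.55 against 8.37 in C57BL/6ByJ) and on 1443876_at (high, mean 7.94 against 6.92), while the brightest Camk2a probe set has the 3 strains together.

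The other CaMKII subunits had no call. Camk2d, a subunit found in many tissues, had the widest difference among the 102 member probe sets that were not called: 1459457_at read 5.05, 4.64 and 5.15 in C57BL/6ByJ, 3.90, 4.06 and 4.46 in BALB/cJ, and 4.73, 5.25 and 4.25 in B6By.C.132.54. BALB/cJ and C57BL/6ByJ did not overlap, but with a log2 difference of -0.81 (95% interval -1.32 to -0.29) it missed the threshold (limma adjusted p = 0.22). The brightest Camk2d probe set had a mean of 6.71 and a largest strain difference of 0.17. Camk2b, the subunit that also bundles actin, had means of 8.68 ± 0.123 (SD, n = 3) in C57BL/6ByJ, 8.75 ± 0.138 in BALB/cJ and 8.58 ± 0.155 in B6By.C.132.54. Camk2g, at 9.62, 9.82 and 9.74 in the same order, was as flat.

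Among the membrane-associated guanylate kinases and their Lin7 adaptor, none of 13 probe sets was called in any strain comparison, and the differences between BALB/cJ and C57BL/6ByJ ran from -0.43 to 0.08. Dlg4, which encodes PSD-95, read 7.40, 7.96 and 8.03 in C57BL/6ByJ on 1419580_at. It read 7.59, 7.85 and 8.02 in BALB/cJ, and 7.40, 8.05 and 7.76 in B6By.C.132.54. The strains overlapped wholly, while within each strain replicate 1 was the lowest array. The strain difference was 0.02 with a 95% interval of -0.41 to 0.46. Dlg1, which encodes SAP97, averaged 8.71, 8.70 and 8.69 in the 3 strains on its brightest probe set. On 1450768_at it was lower in B6By.C.132.54 than in C57BL/6ByJ, with a log2 difference of -0.29 (95% interval -0.52 to -0.07). The arrays of these strains did not overlap there, but the difference did not pass (limma adjusted p = 0.915). Dlg2 (PSD-93) and Dlg3 (SAP102), relatives that also hold NMDA receptors, had largest strain differences of 0.16 and 0.10 on their brightest probe sets. Lin7a had the widest difference of the group, -0.43 on 1456656_at (limma adjusted p = 0.36).

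In the SAPAP and Shank layer, 12 probe sets of 6 measured genes gave no call. The brightest probe set of Dlgap1 (SAPAP1) averaged 8.60 ± 0.309 (SD, n = 3) in C57BL/6ByJ, 8.41 ± 0.113 in BALB/cJ and 8.27 ± 0.404 in B6By.C.132.54. Its 6 probe sets spanned -0.31 to 0.25 between BALB/cJ and C57BL/6ByJ, so they did not share a direction. On the highest, 1440639_at, BALB/cJ (6.39, 6.49 and 6.65) lay above every array of C57BL/6ByJ (6.29, 6.26 and 6.22) and B6By.C.132.54 (5.97, 6.35 and 6.23). Neither comparison with BALB/cJ passed there (limma adjusted p = 0.625 and 0.386). Dlgap3 (SAPAP3) averaged 7.74, 7.80 and 7.78 in the 3 strains and Shank3 7.62, 7.74 and 7.66, both within their spread. Dlgap2 and Dlgap4 had largest strain differences of 0.19 and 0.13 on their brightest probe sets. The 2 probe sets of Dlgap4 disagreed in direction. Against C57BL/6ByJ, the brightest was lower in BALB/cJ and B6By.C.132.54, by -0.07 and -0.13. The other, 1426465_at, was higher by 0.24 and 0.23 (limma adjusted p = 0.903 and 0.915). Shank1 is known here only from 1 probe set at 2.97, below the median of 3.97 over all probe sets.

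The adhesion genes gave 24 probe sets and no call between strains, with differences between BALB/cJ and C57BL/6ByJ from -0.31 to 0.18. Nlgn2, the neuroligin of inhibitory synapses, averaged 8.03 ± 0.137 (SD, n = 3), 8.13 ± 0.0668 and 8.02 ± 0.0779 in C57BL/6ByJ, BALB/cJ and B6By.C.132.54. Nlgn1, the neuroligin of excitatory synapses, averaged 5.35 ± 0.531, 5.17 ± 0.0324 and 5.02 ± 0.160. The C57BL/6ByJ arrays (5.82, 4.78 and 5.45) overlapped both other strains, while BALB/cJ (5.20, 5.17 and 5.14) lay just above B6By.C.132.54 (5.14, 5.10 and 4.84), a log2 difference of -0.15 that missed the threshold (limma adjusted p = 0.93). Nlgn3, which occurs at both kinds of synapse, had a largest strain difference of 0.26 on its brightest probe set. The presynaptic partners Nrxn2 and Nrxn3 had largest differences of 0.11 and 0.21 on their brightest probe sets. Those of Lrrtm1, Lrrtm2 and Lrrtm3, postsynaptic neurexin ligands, were 0.15, 0.19 and 0.13. Over all 24 probe sets, B6By.C.132.54 minus C57BL/6ByJ ran from -0.42, for Lrrtm2 on the dimmer 1456637_at, to 0.12. In the same comparison Lrrtm3 on 1434760_at and Nrxn3 on 1432931_at, also dimmer, differed by -0.34 and -0.29 (limma adjusted p = 0.915 for each of the 3).

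The AMPA receptor partners, calcineurin and the remaining scaffolds were as flat between strains. Cacng2 (stargazin), Cacng3 and Cacng8, which are auxiliary subunits that carry AMPA receptors to the synapse, had largest strain differences of 0.12, 0.06 and 0.19 on their brightest probe sets, and Grip1, a PDZ protein that binds AMPA receptors, had 0.24. The calcineurin catalytic subunits Ppp3ca and Ppp3cb averaged 10.39 and 9.81 over the 9 arrays on their brightest probe sets, where they differed by at most 0.10 between strains. Over all their probe sets the widest differences were -0.17 for each, both for B6By.C.132.54 against C57BL/6ByJ. Nrgn (neurogranin), which holds calmodulin near the membrane, read 9.38, 9.84 and 9.73 in C57BL/6ByJ and 9.68, 9.74 and 9.66 in BALB/cJ, with B6By.C.132.54 at 9.48, 9.71 and 9.67. Akap5, which anchors calcineurin and protein kinase A, had a largest difference of 0.14 on its brightest probe set and of 0.17 lower in B6By.C.132.54 than in BALB/cJ on 1436142_at. Kalrn, an exchange factor of spine growth, averaged 9.70 on its brightest probe set and differed by at most 0.19 there, and by at most 0.23 over its 8 probe sets. Baiap2 (IRSp53), Cnksr2 and Gphn (gephyrin, the scaffold of inhibitory synapses) had largest differences of 0.27, 0.12 and 0.23 on their brightest probe sets. A dimmer Gphn probe set, 1430038_at, differed by -0.25 between B6By.C.132.54 and C57BL/6ByJ.

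**Figure D2:**
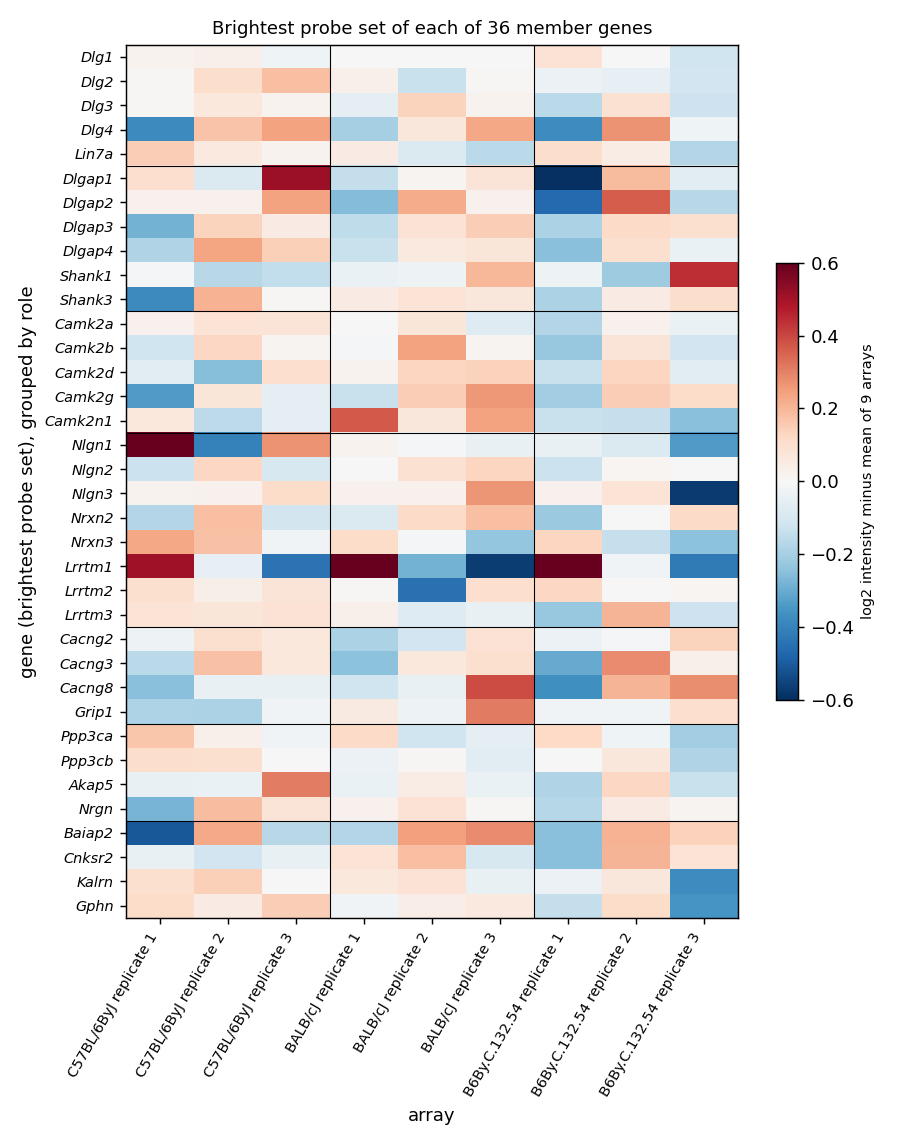
Heat map of the brightest probe set of each of the 36 measured genes (rows, grouped by role) on the 9 arrays (columns, by strain), coloured by log2 intensity minus the gene's mean over the 9 arrays, with colours ending at 0.6 in either direction. No row changes colour with the strain as strongly as Lrrtm1 does with the replicate number, and BALB/cJ minus C57BL/6ByJ runs from -0.19 for Dlgap1 to 0.28 for Camk2n1.

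Over all 104 member probe sets the median difference of BALB/cJ from C57BL/6ByJ was 0.01, against 0.02 over all probe sets. A difference beyond 0.5 in either direction was found for 3 of 104 member probe sets and for 927 (2.06%) of all. Apart from the called pair, the differences ran from -0.81 to 0.43. The median 95% interval reached 0.271 to each side of the probe set's own difference, not of 0. That was the precision that 3 arrays per strain gave for the typical member.

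Between B6By.C.132.54 and C57BL/6ByJ no member probe set was called, and no probe set of the whole array was (0% of 45037). At an unadjusted p under 0.05 limma gave 3 of 104 member probe sets and 1751 of all, and 8 and 3349 with the replicate number as a block. On the Camk2n1 probe set that was low in BALB/cJ, B6By.C.132.54 differed from C57BL/6ByJ by -0.07 (95% interval -0.39 to 0.24). On the Camk2a probe set that was high in BALB/cJ it differed by -0.21 (95% interval -0.46 to 0.05). The widest member difference was -0.48 for Camk2a on 1442707_at, with means of 7.31 ± 0.337 (SD, n = 3) and 6.83 ± 0.365 and a limma adjusted p of 0.915.

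B6By.C.132.54 differed from BALB/cJ on the same 2 probe sets. This comparison shares the BALB/cJ arrays with the first one, so it is no separate evidence for the BALB/cJ level. Camk2n1 on 1440455_at was 6.68-fold higher in B6By.C.132.54 (log2 difference 2.74, limma adjusted p = 1.98e-06), and Camk2a on 1443876_at was 2.34-fold lower (log2 difference -1.22, limma adjusted p = 0.000231). The members' 1.92% stands beside 1.28% of all probe sets (0.713% higher and 0.564% lower in B6By.C.132.54), and beside 1.85% with the replicate number as a block. The other Camk2n1 probe set, 1456609_at, was lower in B6By.C.132.54 by a log2 difference of -0.40 (95% interval -0.62 to -0.18) without passing (limma adjusted p = 0.124), although quantile normalization of the arrays brought it under the threshold (adjusted p = 0.0392).

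**Figure D3:**
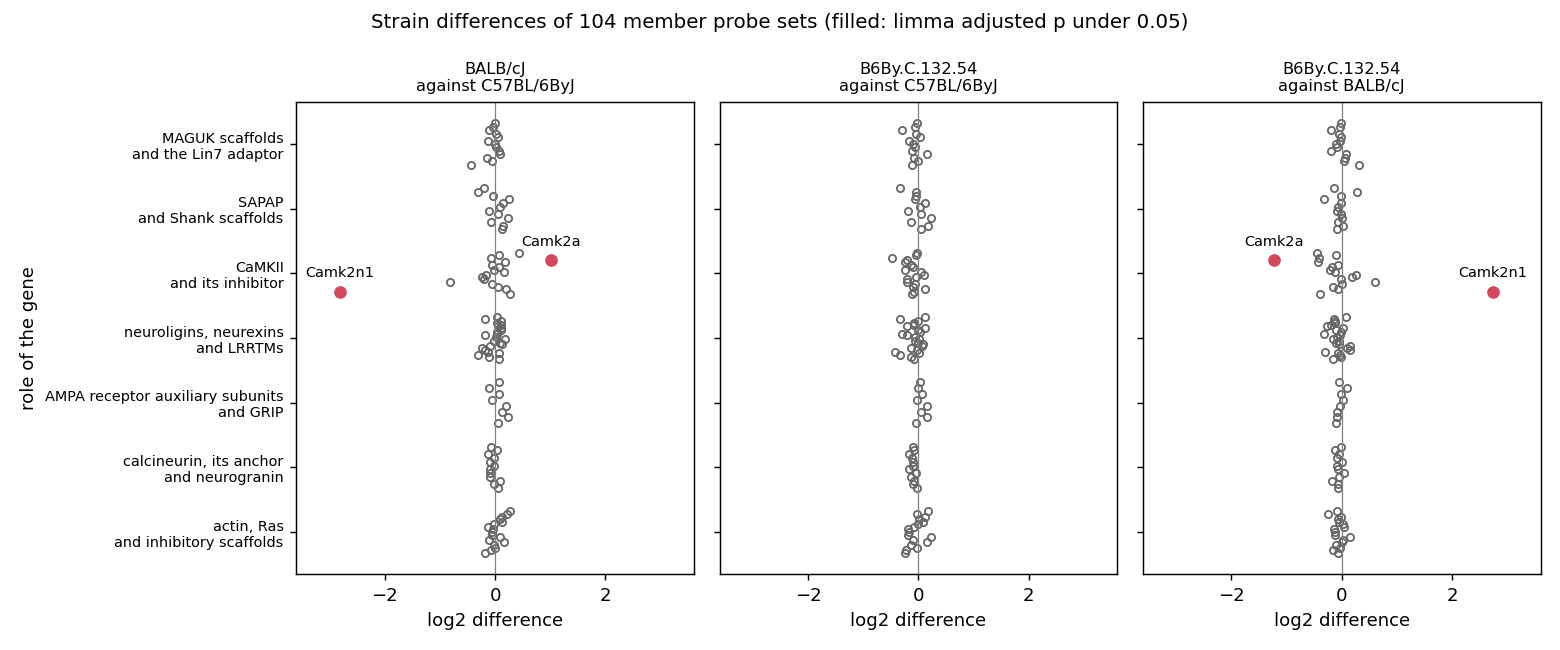
Log2 differences of the 104 member probe sets in the 3 strain comparisons, grouped by role, with called probe sets marked and named. Camk2n1 and Camk2a stand out in both comparisons with BALB/cJ, and B6By.C.132.54 against C57BL/6ByJ has no point beyond 0.5.

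Other genes of the same synaptic machinery, 88 measured of a list of 97, gave few calls as well. Of their 205 probe sets, 0 were higher and 2 (0.976%) lower in BALB/cJ than in C57BL/6ByJ. Cyfip2, a subunit of the WAVE actin regulator and partner of the fragile X protein, read 9.51, 9.51 and 9.30 in C57BL/6ByJ and 8.59, 8.56 and 8.52 in BALB/cJ on 1428347_at, with B6By.C.132.54 at 9.34, 9.30 and 9.17. BALB/cJ was low on every array (log2 difference -0.88, limma adjusted p = 0.00033). A second Cyfip2 probe set, 1449273_at, went the same way without passing (-0.54, limma adjusted p = 0.296). Tenm2, a teneurin that binds latrophilins across the synapse, was lower in BALB/cJ by -0.69 on 1454424_at (limma adjusted p = 0.0114). Its call was lost without C57BL/6ByJ replicate 1 (0.0637) or 3 (0.0502), or without BALB/cJ replicate 1 (0.0590) or 2 (0.0564). With the replicate number as a block, 2.12% of all probe sets were called (0.775% higher and 1.34% lower). Lrrc4c (NGL-1, a netrin-G ligand) was then also higher in BALB/cJ (0.85, adjusted p 0.121 without and 0.0233 with the block) and Nptx2, a neuronal pentraxin that clusters AMPA receptors, was also lower (-0.46, 0.0596 and 0.0135).

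Against BALB/cJ, B6By.C.132.54 had 5 called probe sets of 4 of these genes (2.44% of 205). Cyfip2 was higher by 0.71 (limma adjusted p = 0.00172). Nptx2 was higher on both of its called probe sets, by 0.56 and 0.62 (limma adjusted p = 0.0411 and 0.0108). Lrrc4c was lower by -1.02 (limma adjusted p = 0.0481) and the guanylate kinase Mpp3 by -0.44 (limma adjusted p = 0.0405). The Nptx2 mean in BALB/cJ was 3.66 on 1449960_at, below the median of all probe sets. The Lrrc4c and Mpp3 calls were each lost in 11 of 16 alternatives, among them every array left out but replicate 2 of B6By.C.132.54, with adjusted p up to 0.24 and 0.522. That of Nptx2 on 1420720_at was lost in 10, with adjusted p up to 0.203 (without BALB/cJ replicate 2), and that on 1449960_at in 4, among them without BALB/cJ replicate 1 (0.0562) or 2 (0.0614). B6By.C.132.54 against C57BL/6ByJ gave none.

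More member probe sets differed with the replicate number than between strains. In the fit with strain and replicate number together, 9 of 104 member probe sets (8.65%), from 9 genes, passed limma's moderated F test of the replicate number, beside 2.70% of all probe sets. Replicate 1 was higher than the mean of replicates 2 and 3 in 7 of them (6.73%, against 2.15% of all) and lower in 2. The 2 sets of probe sets were not of like brightness. Of the members 22 of 104 lay below the median level, against 22518 of 45037 of all, and the part of brightness in these shares was not tested. Genes outside the set passed too. Among the marker lists, read on each gene's brightest probe set, 2 of 9 neuronal and 2 of 7 oligodendrocyte markers passed. So did 1 of 8 astrocyte, 1 of 8 hippocampal and 1 of 8 thalamic markers. No microglial, vascular, choroid plexus, striatal, neocortical or cerebellar marker did. The study was run in 3 batches with every strain in each, but the labels do not tie the replicate numbers to those batches.

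Of the 7 that were higher, 3 were LRRTM genes. Lrrtm1 on 1455883_a_at read 6.88, 6.99 and 7.04 in replicate 1 of C57BL/6ByJ, BALB/cJ and B6By.C.132.54. It read 6.33, 6.09 and 6.35 in replicate 2, and 5.93, 5.81 and 5.95 in replicate 3. The 3 replicate numbers did not overlap, and replicate 1 was higher than the others in 3 of 3 strains (log2 difference 0.89, limma adjusted p = 0.000526). Nrxn3 on 1456137_at read 8.54, 8.46 and 8.65 in replicate 1 of the same strains, 7.65, 7.78 and 7.52 in replicate 2, and 7.89, 7.79 and 7.71 in replicate 3. Only replicate 1 stood apart, by 0.82 (limma adjusted p = 0.00189).

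Lrrtm2 on 1437787_at showed the pattern of Nrxn3, at 7.18, 6.66 and 6.80 in replicate 1 of the same strains and between 5.81 and 6.19 on the other 6 arrays (0.82, limma adjusted p = 0.0114). Dlgap1 on 1436076_at had 6.49, 5.93 and 6.78 in replicate 1 and between 5.39 and 5.66 on the other 6 (0.88, limma adjusted p = 0.0154). Akap5 on 1436142_at read 5.52 to 5.80 in replicate 1, 4.80 to 5.13 in replicate 2 and 5.08 to 5.17 in replicate 3 (0.55, limma adjusted p = 0.0189). On each of these probe sets replicate 1 lay above all other arrays. Lrrtm3 on 1434759_at, at 3.20, 3.51 and 3.63 in replicate 1 and 2.36 to 2.85 elsewhere (0.72, limma adjusted p = 0.0197), was dim, under the 3.97 of the median probe set. Also under it was Camk2d on 1422659_at, at 3.47, 3.33 and 3.23 in replicate 1 and 2.66 to 3.04 elsewhere (0.43, limma adjusted p = 0.0288). The 2 that were lower in replicate 1 were Baiap2 on 1425656_a_at, at 7.86, 8.19 and 8.11 in replicate 1 and 8.20 to 8.65 elsewhere (-0.47, limma adjusted p = 0.0315), and Dlg4 on 1419580_at, with replicate means of 7.46, 7.95 and 7.93 (-0.48, limma adjusted p = 0.0458).

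The same genes have 29 further probe sets, and none of these passed. The 2 others of Lrrtm1 were lower in replicate 1, by -0.22 and -0.01, and the 4 others of Nrxn3 ran from -0.17 to 0.24. The 5 others of Dlgap1 ran from -0.32, on its brightest probe set, to 0.09, and the 3 others of Lrrtm3 from -0.06, on its brightest, to 0.35. The 2 others of Akap5 ran from -0.13 to 0.11 and the 6 others of Camk2d from -0.12 to 0.09. By contrast both others of Lrrtm2 were higher, by 0.11 and 0.41, and all 3 others of Baiap2 were lower, by -0.28 to -0.16. The 2 others of Dlg4 were lower too, by -0.51 on 1419581_at and -0.01 on 1460261_at. The RNA controls moved with the replicate number too. The log2 difference of the 3′ from the 5′ Actb control was 0.709 to 0.777 in replicate 1, 0.506 to 0.565 in replicate 2 and 0.544 to 0.596 in replicate 3. That of Gapdh was -0.601 to -0.488 in replicate 1, -0.410 to -0.357 in replicate 2 and -0.352 to -0.274 in replicate 3, lowest in replicate 1 where Actb was highest. The 3′ minus middle difference was highest in replicate 1 of every strain for Actb only. For Actb it was 0.839 to 0.891 in replicate 1, 0.589 to 0.664 in replicate 2 and 0.644 to 0.715 in replicate 3. For Gapdh it was -0.320 to -0.276, -0.436 to -0.353 and -0.337 to -0.302. The mean level of 7 oligodendrocyte markers was 8.74 to 8.76 in replicate 1, 8.61 to 8.66 in replicate 2 and 8.39 to 8.61 in replicate 3, and that of the 9 neuronal markers was 10.0 to 10.1, 9.99 to 10.1 and 9.77 to 9.95. Their part in the result was not tested.

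The count of 9 fell to 3 without C57BL/6ByJ replicate 1 or BALB/cJ replicate 1, to 5 without BALB/cJ replicate 3 and to 2 without B6By.C.132.54 replicate 1. Lrrtm1 and Nrxn3 passed in all 12 alternatives that could be run. The called Camk2n1 and Camk2a strain differences, in contrast, were of like size within each replicate number. None of their 8 probe sets was among those called for the replicate number.

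**Figure D4:**
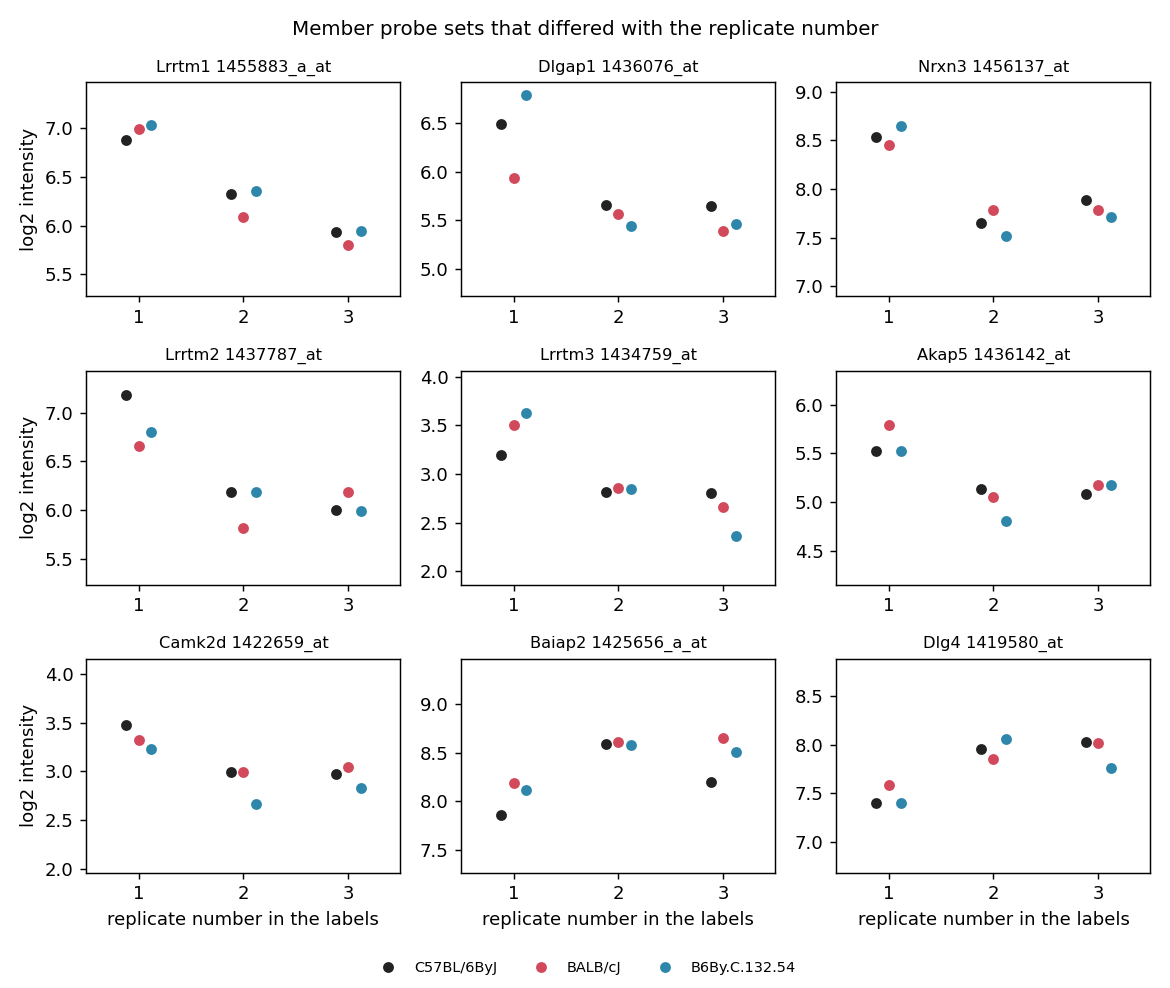
Log2 intensity of the 9 member probe sets called for the replicate number, by replicate number, with 1 point per array coloured by strain. Replicate 1 is high in all strains for 7 of them, from 0.43 for Camk2d to 0.89 for Lrrtm1, and low for Baiap2 and Dlg4.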

How the data were processed

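The authors' deposited table gives 1 linear signal intensity per probe set and array for 9 Affymetrix arrays made from 7 µg of total RNA each, per the labels' protocols. GCOS and RMA are named in the submitters' processing notes, without versions or order. The scale on which arrays were normalized and the background treatment are not given in the sources used here. Values were taken to log2 with no pseudocount, and 64 control probe sets of 45101 were left out of the tests. Genes came from the platform annotation (34945 probe sets with 1 gene, 932 with several, 9160 with none), and 34741 symbols were updated through RefSeq. All 9 arrays, grouped by the strain label, were fitted together in limma 3.58.1 (R 4.3.3) with Benjamini-Hochberg adjustment over 45037 probe sets and a threshold of 0.05. The script was tested on simulated data whose noise was drawn independently for each array, so arrays of 1 replicate number shared no noise there. Intervals are 95% and use the moderated spread. The number of arrays limits the precision.

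The 9 pairs of arrays with the same replicate number deviated together (correlation 0.147 to 0.542 in every pair). Pairs of replicate 1 with another number ran from -0.458 to -0.132. Pairs of replicate 2 with replicate 3 ran from -0.0066 to 0.153, so this check did not clearly separate 2 from 3. The numbers were taken to pair the arrays, and a replicate block was fitted beside the main test. The pairing comes from the labels' numbers and this check. Every member is named, with each array's value for those called between strains. Members, lists and rules were chosen with earlier results of these data known. Alternatives were quantile normalization, a pseudocount of 16, dim probe sets left out, a variance trend, only the arrays of both strains compared, the block, each array left out and replicates 2 and 3 alone, the last chosen after seeing the data.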

Additional observations from a re-analysis of the deposited data

How the results depend on the processing

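The counts of called member probe sets kept to 2, 0 and 2 (BALB/cJ against C57BL/6ByJ, B6By.C.132.54 against C57BL/6ByJ, B6By.C.132.54 against BALB/cJ) in 16 alternatives each, apart from 3 in the last under quantile normalization. The counts with 1 array left out were 2 to 2, 0 to 0 and 2 to 2. With the replicate block they were 2, 0 and 2, and all probe sets called rose from 644 to 953 and from 575 to 834. The block changed the Lrrc4c and Nptx2 calls given above and no other call among the named strain differences. With replicates 2 and 3 alone, chosen after seeing the data, all probe sets called fell to 309 and 395, and the calls of Tenm2 in BALB/cJ against C57BL/6ByJ and Cyfip2 in B6By.C.132.54 against BALB/cJ were lost (adjusted p = 0.264 and 0.0731). Of 432 reruns of 27 named strain differences, 376 kept direction and side of the threshold, 42 lost the call, 10 gained one and 4 changed sign. The sign changes were all in B6By.C.132.54 against C57BL/6ByJ near 0 and the cause was not tested: Camk2n1 on 1440455_at at 0.011 under quantile normalization and from -0.17 to 0.0086 with 1 array left out (0.0040 without C57BL/6ByJ replicate 2, and the highest without replicate 1 of B6By.C.132.54), and Lrrc4c from -0.45 to 0.064 with 1 array left out (the highest without replicate 1 of B6By.C.132.54). The count for the replicate number was 9 under quantile normalization, 13 with the pseudocount and 2 to 11 with 1 array left out. It was also 9 with dim probe sets left out, but not for the same 9. That setting drops the called Lrrtm3 and Camk2d probe sets. Of 106 reruns of those 9 probe sets, 38 lost the call and none changed sign.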

Other observations

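Of the other synaptic genes, 6 of 205 probe sets (2.93%) passed limma's test of the replicate number. Cdh2, which encodes N-cadherin, an adhesion protein of both sides of the synapse, was higher in replicate 1, with means of 7.52, 6.42 and 6.22 in replicates 1 to 3 (log2 difference 1.21, limma adjusted p = 0.000351). Prkar2b, a regulatory subunit of protein kinase A, had 6.10, 5.47 and 5.17 (0.78, limma adjusted p = 0.00737). Slitrk4, a synaptic adhesion protein, had 6.43, 5.87 and 5.78 (0.61, limma adjusted p = 0.012), and Lin7c had 7.16, 6.87 and 6.50 (0.48, limma adjusted p = 0.046). Lrfn3 and Lrrc4b, adhesion proteins with leucine-rich repeats, were lower in replicate 1, by -0.45 and -0.39. Their share was near that of all probe sets, 2.70%.

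Repeated values occurred in the deposited table. Of the 104 member probe sets, 45 had 1 value, equal in log2 to 10 decimals, on at least 2 arrays, and 4 had it on at least 4 arrays (probe sets of Kalrn, Nlgn3, Dlg1 and Ppp3cb).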
